A study of Mus musculus with 56 samples.

Results

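The 46 genes described here carry out and time the division of cells. They were taken as a fixed list of symbols, and all 46 were found among the 23813 genes of the deposited liver RNA table, each by its first listed RefSeq transcript. Their RNA was compared between 3 groups of 4 liver libraries from male mice. Hypothyroid WT mice (label PTU) ate chow poor in iodine that held propylthiouracil (PTU), a drug that stops the thyroid from making its hormones. Hyperthyroid WT mice (label PTU_T3) ate that chow too and had injections of triiodothyronine (T3), the active hormone, on its last days, and the labels do not give the number of days for each mouse. Hypothyroid L-NCOR1ΔID mice (labels L-NCORdeltaID and PTU) received PTU without T3 and express, in the liver, an NCOR1 corepressor without the domains that bind the thyroid hormone receptor (TR). All 3 groups therefore received PTU, and no L-NCOR1ΔID mouse received T3. The mutant line was kept on a mixed strain background, and the labels give no strain or age for any library. The paper lists age by group over all its mice, with a lower mean for L-NCOR1ΔID than for hypothyroid or hyperthyroid WT mice. A part of age in the differences was not tested. The labels also do not say that each library is a separate mouse, so the p-values measure the spread between these libraries.

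A cell that leaves rest first makes D-type and E-type cyclins. With their kinases these inactivate the retinoblastoma proteins and release E2F factors, which switch on the genes for DNA replication and nucleotide synthesis. The MCM helicase is loaded at replication origins in G1 and opens the DNA in S phase. Cyclin A, cyclin B, CDK1 and the mitotic kinases then drive G2 and mitosis, and CDK inhibitors such as p21 and p27 hold the cycle back. The adult liver is largely at rest and re-enters the cycle after loss of tissue, and T3 is a known mitogen for rodent hepatocytes.

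The libraries held 21325000 to 42610000 reads, as read from the steps between the lowest RPKM values (reads per kilobase of transcript, scaled to the library's total), with 21325000 to 26080000 in hyperthyroid WT, 29100000 to 38175000 in hypothyroid WT and 38090000 to 42610000 in L-NCOR1ΔID mice. A value of 0.1 RPKM was then 2.13 to 4.26 reads per kilobase. Thrsp and Dio1, known T3 targets, were higher in every hyperthyroid than in every hypothyroid WT library, although Dio1 varied from 0.719 to 57.7 RPKM in hypothyroid WT. Ncor1 RNA was 14.1 to 15.6 RPKM in hypothyroid WT and 12.1 to 13.9 RPKM in L-NCOR1ΔID mice (limma adjusted p = 0.2), and a value per gene cannot show that the domains are lost.

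In hypothyroid WT liver most of the 46 genes were rare. Mean RNA was at least 1 RPKM for 16 of them, from 0.1 to 1 RPKM for 21 and under 0.1 RPKM for 9. The 9 were Cdc6, Ccnb1, Aurkb, Plk1, Bub1, Bub1b, Cenpe, Tpx2 and Foxm1, and 8 of these act in G2 and mitosis. Few reads stood behind the lowest of these values. Bub1, for example, rested on an estimated 2 to 24 reads per library, Mki67 on 22 to 370 and Ccnd1 on 288 to 1935. These numbers were estimated from RPKM, the depth above and the longest protein-coding transcript of each gene in GENCODE M1.

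**Figure D1:**
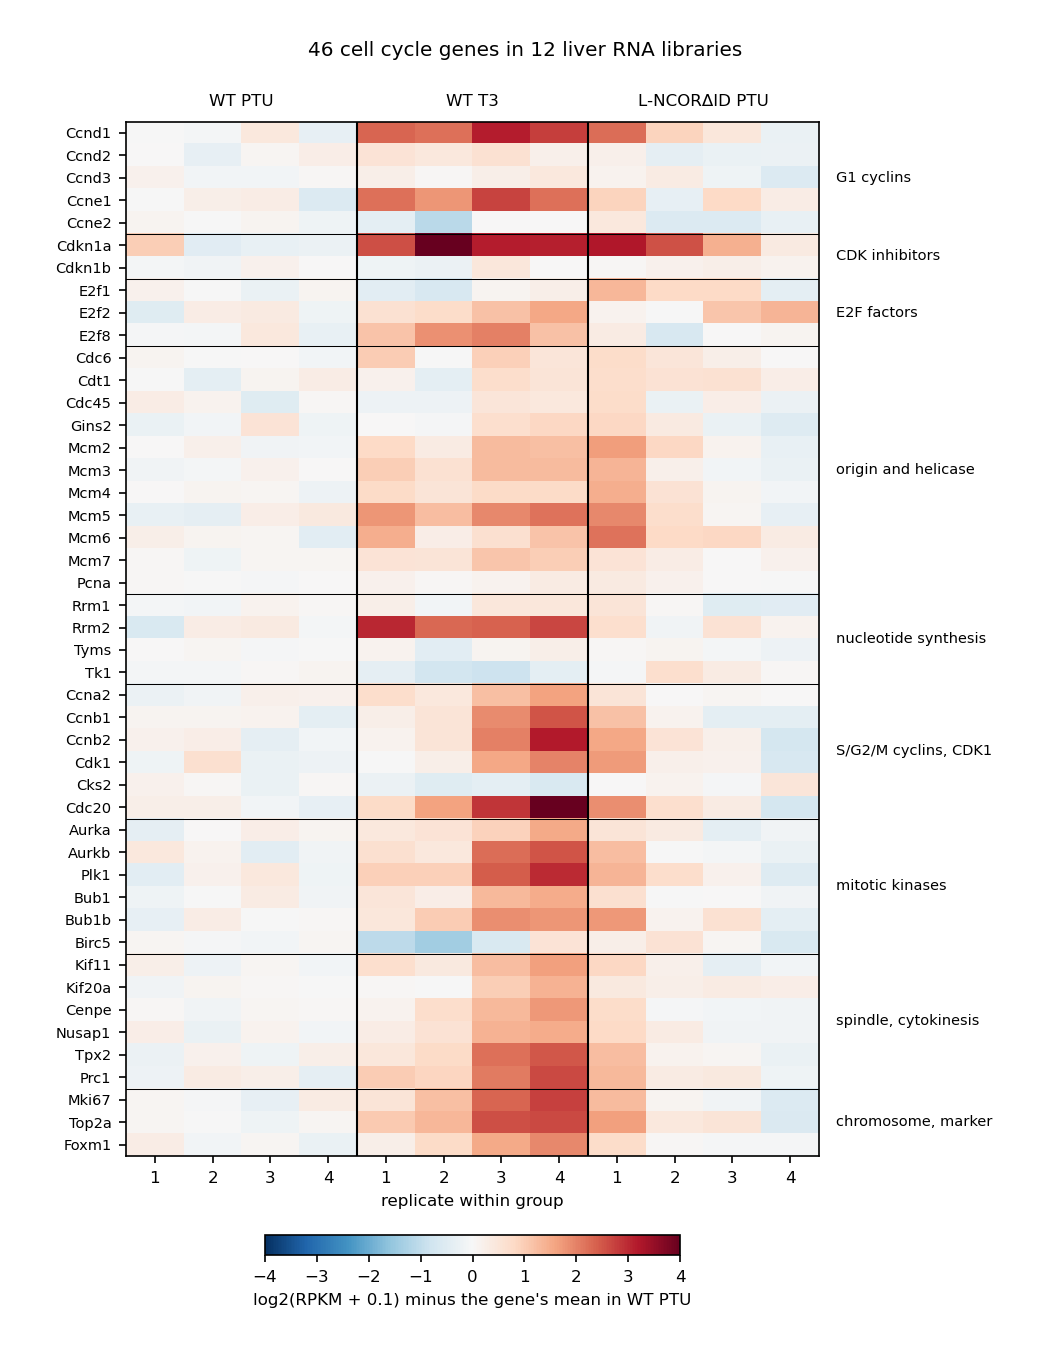
Colour shows log2(RPKM + 0.1) of each of the 46 genes (rows, by role) in each of the 12 libraries (columns, by group and replicate) minus the gene's mean in hypothyroid WT (WT PTU). Red is higher and blue is lower. Hyperthyroid replicates 3 and 4 were the reddest for the G2 and mitosis genes in the lower rows, and L-NCOR1ΔID replicate 1 stood out from the other mutant libraries.

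The first comparison asked which of these genes respond when hypothyroid mice receive T3. After T3 Cdkn1a, Ccnd1, Rrm2, Ccne1, Top2a, Mcm5, Prc1, E2f8 and Mcm3 rose, by 1.04 to 3.21 on the log2(RPKM + 0.1) scale, and no gene of the list fell past the thresholds (limma adjusted p under 0.01 together with a change of more than 1 on that scale, 4 against 4 libraries). These 9 of 42 genes tested compare with 8.28% of all 13941 genes tested called higher, and the 0 called lower with 3.47%. At any size of change 12 of the 42 were higher and 1, Tk1, was lower, where the shares over all genes tested were 24.5% and 7.71%. The median log2 fold change over all 46 genes, without a filter on low values, was 0.95, against 0.16 over the 18215 genes with any value above 0, and 41 of the 46 changes were above 0. Of the 42 tested genes 37 changes were above 0, where 69.9% of all 13941 genes tested were. All hyperthyroid libraries were above all hypothyroid WT libraries for 24 of the 42 tested genes, and Tk1 alone had all of them below. Over all genes tested these shares were 35.8% and 10.8%. A gene was tested where 4 or more of the 8 libraries held 0.1 RPKM or more. Of the 42 that passed, 36 reached it in all 4 hypothyroid libraries and 6 (Aurkb, Plk1, Bub1b, Tpx2, Mki67 and Foxm1) passed because of the hyperthyroid libraries, so counts over the tested genes are no more than a description. Bub1, Ccnb1, Cdc6 and Cenpe were not tested. The number called rested on single libraries: it was 16 without hyperthyroid replicate 1, 14 without hyperthyroid replicate 2, 7 without hyperthyroid replicate 3 or 4 or hypothyroid WT replicate 1, and 4 with a pseudocount of 1 RPKM.

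Among the G1 cyclins the response was split. Ccnd1, which encodes cyclin D1, was 2.6, 2.48, 3.51 and 2.08 RPKM in hypothyroid WT replicates 1 to 4 and 13.6, 12.4, 24 and 18.6 RPKM in hyperthyroid replicates 1 to 4. The groups did not overlap, and the lowest hyperthyroid library was more than 3 times the highest hypothyroid one. The mean rose from 2.67 ± 0.602 to 17.2 ± 5.29 RPKM (SD, n = 4; log2 fold change 2.62 ± 0.22 SE, limma adjusted p = 3.6e-05), the smallest adjusted p in the list. Exons of Ccnd1 share 818 bp with Oraov1 on the opposite strand, which was listed at 5.39 RPKM in hypothyroid and 7.02 RPKM in hyperthyroid WT on average, and the sources used here do not say that strand was counted. Ccne1, which encodes the S phase cyclin E1, was 0.492, 0.595, 0.634 and 0.309 RPKM in hypothyroid and 2.65, 1.9, 3.78 and 2.63 RPKM in hyperthyroid WT, again with no overlap (2.22 ± 0.24, limma adjusted p = 1.3e-04). The other G1 cyclins were not called. Ccnd2 and Ccnd3 differed by 0.44 (limma adjusted p = 0.035) and 0.23 (0.083), and Ccne2 by -0.35 (0.25), with overlapping libraries in each.

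The CDK inhibitors also differed from each other. Cdkn1a, which encodes p21 and is induced by p53 and by several growth signals, had the largest difference of the 42 genes. It was 6.21, 2.24, 2.52 and 2.66 RPKM in hypothyroid and 19.1, 51.6, 28.5 and 27.8 RPKM in hyperthyroid WT. The groups did not overlap, with hypothyroid replicate 1 above the other 3 hypothyroid libraries and hyperthyroid replicate 2 the highest of all (3.21 ± 0.36, limma adjusted p = 1.5e-04). Cdkn1b, which encodes p27, was between 7.24 and 11.6 RPKM in all 8 libraries (0.02, 95% interval -0.31 to 0.35). The E2F factors gave 3 different pictures. E2f8, a repressor of the family, was 0.326 to 0.604 RPKM in hypothyroid and 1.07 to 2.04 RPKM in hyperthyroid WT and rose without overlap (1.54, limma adjusted p = 9.5e-04). E2f2, an activator, had every hyperthyroid library above every hypothyroid one but missed the threshold (1.02, limma adjusted p = 0.012). E2f1, the activator named first in the family, was 1.03 to 1.42 RPKM in hypothyroid and 0.771 to 1.5 RPKM in hyperthyroid WT (-0.18, 95% interval -0.65 to 0.30).

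**Figure D2:**
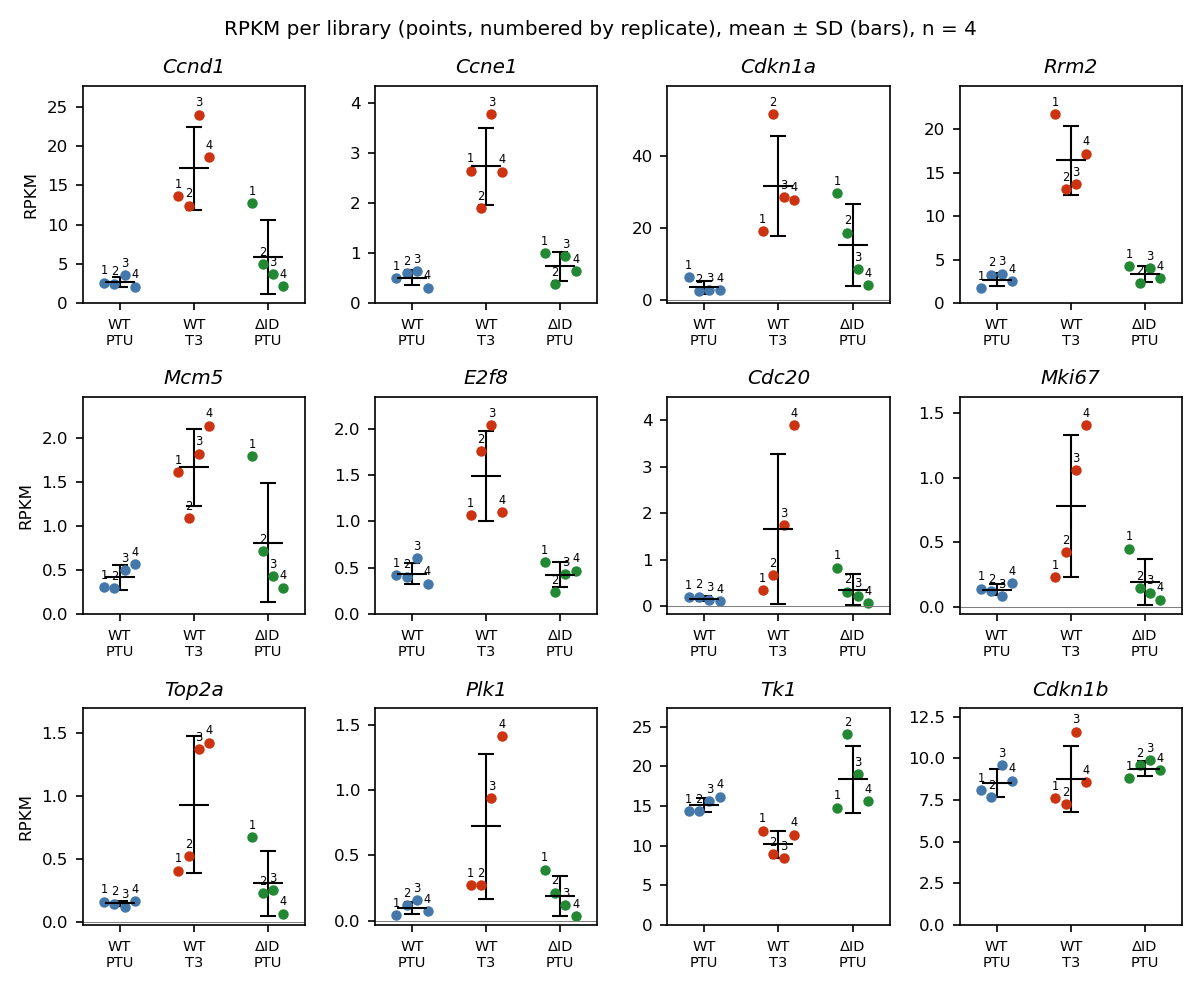
RPKM (linear axis) of 12 of the genes in each library of hypothyroid WT (WT PTU), hyperthyroid WT (WT T3) and hypothyroid L-NCOR1ΔID mice (ΔID PTU). Points are libraries numbered by replicate, and bars are mean ± SD of 4. Ccnd1, Ccne1, Cdkn1a, Rrm2, Mcm5 and E2f8 were higher in all hyperthyroid than in all hypothyroid WT libraries, while Cdkn1b overlapped and Tk1 was lower.

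In the replication origin and helicase group, 2 of the 10 genes tested were called higher, against 8.28% of all genes tested. At any size of change 5 were higher at that adjusted p, against 24.5% of all genes tested. All 5 encode subunits of the MCM2-7 helicase. Mcm5 was 0.307, 0.291, 0.499 and 0.564 RPKM in hypothyroid and 1.61, 1.09, 1.82 and 2.14 RPKM in hyperthyroid WT, with no overlap (1.78 ± 0.25, limma adjusted p = 4.8e-04). Mcm3 was 0.941, 0.98, 1.18 and 1.06 RPKM in hypothyroid and 2.17, 1.65, 2.62 and 2.62 RPKM in hyperthyroid WT (1.04 ± 0.16, limma adjusted p = 9.4e-04). The fold change of Mcm3 lay just above the threshold, and the call was kept in 11 of 17 other settings. Mcm2 (0.89), Mcm7 (0.79) and Mcm4 (0.71) passed the adjusted p below that fold, and Mcm6 differed by 0.88 (limma adjusted p = 0.023). All 6 subunits had every hyperthyroid library above every hypothyroid WT library, as did 35.8% of all genes tested. The gap was small for Mcm6 (lowest hyperthyroid 0.997, highest hypothyroid 0.984 RPKM) and Mcm2 (0.947 and 0.871 RPKM). The loading factors and the other replication genes differed less. Cdt1 (0.26), Cdc45 (0.13), Gins2 (0.36) and Pcna (0.17), which encodes the sliding clamp of the polymerase, had limma adjusted p from 0.087 to 0.68. Of the exon bases of Gins2 67.3% are shared with Gse1 on the opposite strand, which was listed at 4.23 RPKM in hypothyroid WT against 0.667 RPKM for Gins2, and the part of its reads was not tested. Cdc6, an origin licensing factor, was 0.029 to 0.049 RPKM in hypothyroid and 0.035 to 0.176 RPKM in hyperthyroid WT and was not tested.

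The 4 nucleotide synthesis genes did not move together. Rrm2, the small subunit of ribonucleotide reductase and the one that limits the enzyme in S phase, was 1.69, 3.26, 3.37 and 2.49 RPKM in hypothyroid and 21.7, 13.1, 13.7 and 17.2 RPKM in hyperthyroid WT. The lowest hyperthyroid library was more than 3 times the highest hypothyroid one (2.58 ± 0.23, limma adjusted p = 5.0e-05). Rrm1, the large subunit, was 2.13 to 2.54 RPKM in hypothyroid and 2.12 to 3.23 RPKM in hyperthyroid WT (0.25, limma adjusted p = 0.17), and Tyms, thymidylate synthase, differed by 0.02 (95% interval -0.34 to 0.38). Tk1, thymidine kinase of S phase, went the other way. It was 14.4, 14.4, 15.6 and 16.2 RPKM in hypothyroid and 11.9, 8.96, 8.45 and 11.4 RPKM in hyperthyroid WT, with no overlap (-0.58 ± 0.12, limma adjusted p = 0.0035), and this is less than the fold needed for a call. Tk1 was the most abundant gene of the list in hypothyroid WT. Its exons share 83 bp (1.6%) with Afmid, a liver gene on the opposite strand named here after its values were seen. Afmid was 64.4, 58.4, 61 and 69.9 RPKM in hypothyroid and 53.7, 40.1, 27.9 and 48.8 RPKM in hyperthyroid WT, and the part of its reads in the value of Tk1 was not tested.

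The genes of G2 and mitosis had the widest spread in the hyperthyroid group. Cdc20, which activates the complex that ends metaphase, was 0.198, 0.199, 0.135 and 0.103 RPKM in hypothyroid and 0.336, 0.672, 1.74 and 3.9 RPKM in hyperthyroid WT. The groups did not overlap, and hyperthyroid replicate 4 was over 10 times replicate 1 (2.30 ± 0.59, limma adjusted p = 0.011). Mki67, the proliferation marker Ki-67, was 0.139, 0.121, 0.082 and 0.184 RPKM in hypothyroid and 0.229, 0.422, 1.06 and 1.41 RPKM in hyperthyroid WT (1.70 ± 0.45, limma adjusted p = 0.012). Top2a, the topoisomerase that separates sister chromatids, was 0.16, 0.143, 0.119 and 0.161 RPKM in hypothyroid and 0.406, 0.521, 1.37 and 1.42 RPKM in hyperthyroid WT (1.90 ± 0.36, limma adjusted p = 0.0025). Prc1, which bundles the microtubules of the dividing spindle, was 0.127, 0.225, 0.205 and 0.104 RPKM in hypothyroid and 0.423, 0.37, 0.998 and 1.54 RPKM in hyperthyroid WT (1.65 ± 0.40, limma adjusted p = 0.0078). In all 4 genes the hyperthyroid libraries fell into a low pair, replicates 1 and 2, and a high pair, replicates 3 and 4. Of these 4 genes Top2a and Prc1 were called, and the call of Prc1 was kept in 5 of 16 other settings. Other differences above 1 were those of Plk1, the polo-like kinase (1.82, limma adjusted p = 0.01), Tpx2, a spindle assembly factor (1.48, 0.022), Ccnb2, cyclin B2 (1.46, 0.067), Aurkb, a kinase of chromosome segregation (1.45, 0.033), Bub1b, of the spindle checkpoint (1.28, 0.01) and Foxm1, which drives transcription of mitotic genes (1.11, 0.028). None of these was under 0.01 before rounding. Differences of Ccna2 (cyclin A2), Cdk1, Aurka, Kif11 (a spindle motor), Nusap1 and Kif20a lay between 0.60 and 0.98, with limma adjusted p from 0.012 to 0.13.

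Both replicates 3 and 4 were above both replicates 1 and 2 in the hyperthyroid group for 20 of the 21 genes of G2 and mitosis and for 14 of the 25 genes of G1 and S phase, where this held for 33.4% of the 14079 genes tested for T3 or the mutant and not at 0 throughout the group. The median over the 21 genes of log2(RPKM + 0.1) minus the hypothyroid WT mean was 0.45 and 0.54 in hyperthyroid replicates 1 and 2 and 1.55 and 1.94 in replicates 3 and 4. For the 25 genes of G1 and S phase it was 0.56, 0.26, 0.71 and 0.78. The exception among the 21 was Cks2, a CDK-binding subunit, which was 1.94 to 2.68 RPKM in hypothyroid and 1.5 to 1.96 RPKM in hyperthyroid WT (-0.43, limma adjusted p = 0.022). Birc5, survivin, had the other negative difference of the group (-0.63, limma adjusted p = 0.18), with 0.279, 0.198, 0.411 and 1.05 RPKM in hyperthyroid WT. Its sign depended on the transcript, since the transcript with the highest mean gave 0.29. Ccnb1, Bub1 and Cenpe, too low to be tested, had the same split. Ccnb1, cyclin B1, was 0.052, 0.086, 0.386 and 0.646 RPKM in hyperthyroid replicates 1 to 4 and at most 0.044 RPKM in hypothyroid WT.

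**Figure D3:**
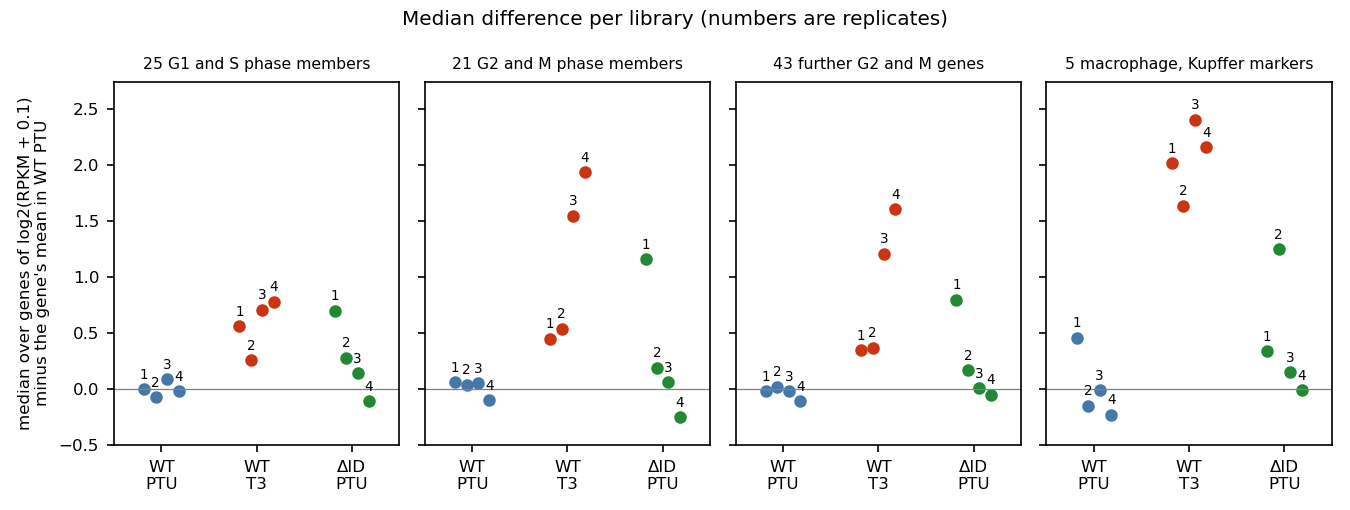
Each point is 1 library, numbered by replicate. The vertical axis is the median over a gene list of log2(RPKM + 0.1) minus each gene's mean in hypothyroid WT (WT PTU), for the 25 G1 and S phase genes, the 21 G2 and mitosis genes, 43 further G2 and mitosis genes and 5 macrophage and Kupffer cell markers. In the G2 and mitosis lists hyperthyroid replicates 3 and 4 and L-NCOR1ΔID replicate 1 were the highest points. The median of the macrophage markers was high in all 4 hyperthyroid libraries and highest in replicates 3 and 4.

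Promoters of cell cycle genes are known to carry a few short elements. E2F sites mark genes of G1 and S phase, while the cell cycle genes homology region (CHR), often paired with CCAAT boxes, marks genes of G2 and mitosis. RefSeq promoters (GRCm38.p6, 250 bases before to 50 after the start, first listed per gene) were found for 36 of the 46 genes and searched on both strands. A CHR (TTTGAA or TTCGAA) was present in 11 of 16 promoters of the G2 and mitosis genes and in 4 of 20 of the G1 and S phase genes, and in 19.4% of all 27025 promoters. A CCAAT box (CCAAT) was present in 14 of the 16, in 12 of the 20 and in 37.9% of all promoters. An E2F site (TTTCCCGC, TTTGGCGC, TTTCGCGC or TTTGCCGC) was present in 1 of the 16, in 7 of the 20 and in 2.3% of all promoters. No promoter of the 36 held an exact DR4, the TR element of AGGTCA repeated after 4 bases, which 3 of the 27025 promoters held. These matches describe letters and were not tested as sites. The 100 bases before the start are shown for 4 of the G2 and mitosis genes that hold a CHR there, with CHR and CCAAT boxes in capitals. Cdk1 is at chr10:69352913-69353012 on the minus strand, Cdc20 at chr4:118437344-118437443 on the minus strand, Top2a at chr11:99024190-99024289 on the minus strand and Mki67 at chr7:135716380-135716479 on the minus strand.
Cdk1: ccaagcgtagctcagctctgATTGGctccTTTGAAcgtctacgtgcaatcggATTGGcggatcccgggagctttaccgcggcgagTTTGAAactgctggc
Cdc20: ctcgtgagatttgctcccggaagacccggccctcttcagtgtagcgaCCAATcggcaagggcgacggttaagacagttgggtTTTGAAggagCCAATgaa
Top2a: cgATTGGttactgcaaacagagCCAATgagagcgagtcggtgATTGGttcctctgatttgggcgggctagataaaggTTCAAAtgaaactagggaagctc
Mki67: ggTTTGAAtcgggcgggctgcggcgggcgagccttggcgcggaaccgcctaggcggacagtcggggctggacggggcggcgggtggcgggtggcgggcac
For comparison, the same stretch is shown for Mcm6, with an E2F site and 2 CCAAT boxes, and for Mcm5 and Rrm2, which were called higher after T3 and hold CCAAT boxes alone in this stretch. Mcm6 is at chr1:128359706-128359805 on the minus strand, Mcm5 at chr8:75109409-75109508 on the plus strand and Rrm2 at chr12:24708154-24708253 on the plus strand.
Mcm6: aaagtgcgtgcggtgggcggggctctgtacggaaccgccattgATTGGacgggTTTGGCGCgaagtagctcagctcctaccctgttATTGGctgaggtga
Mcm5: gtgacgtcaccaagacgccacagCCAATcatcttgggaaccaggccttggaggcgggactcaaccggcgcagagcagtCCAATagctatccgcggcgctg
Rrm2: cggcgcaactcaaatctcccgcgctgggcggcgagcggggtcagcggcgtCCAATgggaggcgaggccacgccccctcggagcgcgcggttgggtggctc
In the stretch shown, the CHR of Top2a is written on the opposite strand (TTCAAA), with 3 CCAAT boxes further upstream. The CHR of Mki67 has no CCAAT box in that stretch. Upstream of it, the searched promoters of both genes hold further CHRs and CCAAT boxes, among them a CHR of Top2a on the gene strand (TTTGAA).

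Of 103 further cell cycle genes from 5 lists (other G1 and S phase genes, other G2 and mitosis genes, RB, E2F and DREAM proteins, CDKs and their inhibitors, and p53 targets), 90 were tested for T3, 13 were called higher and 2 lower, and the median over all 103 was 0.62. Several of those called higher, among them Uhrf1 named below, passed the filter because of the hyperthyroid libraries. Counts over these tested genes are therefore no more than a description. By list the calls were 5 higher and 1 lower of 24 G1 and S phase genes tested, 6 and 1 of 33 G2 and mitosis genes, 0 of 14 RB, E2F and DREAM proteins, 1 and 0 of 8 CDKs and inhibitors, and 1 and 0 of 11 p53 targets. Over all 13941 genes tested the shares were 8.28% higher and 3.47% lower. The largest increases were those of Gadd45a, a stress and growth arrest gene (2.25 to 11.7 RPKM in hypothyroid and 14.7 to 46.4 RPKM in hyperthyroid WT, log2 fold change 2.43), whose exons share 337 bp with E230016M11Rik on the opposite strand, Uhrf1, which maintains DNA methylation behind the replication fork (2.35), and Ung, a uracil DNA glycosylase (2.10). Mcm10, which helps to start the helicase, fell from 29.5 to 43.2 RPKM in hypothyroid to 3.06 to 8.3 RPKM in hyperthyroid WT (-2.71, limma adjusted p = 1.3e-04), against the direction of the 6 Mcm genes above. Its hypothyroid level was higher than that of any of the 46 genes, and none of its exons overlaps another gene in GENCODE M1. Ccnf, cyclin F, fell by 1.02 on the log2 scale (limma adjusted p = 0.0098).

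Whole liver holds several cell types, and a change in the number of dividing cells and a change in the RNA of each cell cannot be told apart. Markers of other cells were therefore read in the same libraries. All 5 macrophage and Kupffer cell markers found, of 6 listed (Adgre1, Clec4f, Csf1r, Marco and Timd4), were called higher after T3, and their summed level was 21.9 to 32.3 RPKM in hypothyroid and 75.2 to 125 RPKM in hyperthyroid WT. Of the lymphocyte markers Ptprc, the CD45 gene of all leukocytes, was called higher (1 of 6, summed level 1.84 to 4.51 and 4.34 to 7.18 RPKM). S100a8 and S100a9 were called higher among 7 neutrophil and precursor markers found of 8 (summed level 0.159 to 0.734 and 1.64 to 16.2 RPKM), while Ngp, Camp, Ltf and Mpo were under 0.1 RPKM in all 12 libraries. Elane, of the same list, was not tested. It was at most 0.15 RPKM in hypothyroid WT, 0.051 RPKM in hyperthyroid WT and 0.113 RPKM in L-NCOR1ΔID mice. Of the erythroid markers, 6 found of 7, Slc4a1 was under 0.1 RPKM in all libraries and none was called higher (143 to 209 and 149 to 216 RPKM). Alas2, of heme synthesis in erythroid cells, was called lower (83.5 and 11.4 RPKM on average, -2.91), and at any size of change Klf1 was lower (-0.90) and the globins Hba-a1 (0.81) and Hbb-b1 (0.88) were higher. No endothelial (0 of 5, 18.7 to 27.2 and 26.8 to 33.4 RPKM) or stellate marker (0 of 5, 8.83 to 14.4 and 13.2 to 16.2 RPKM) was called, and 1 of 5 cholangiocyte markers, Krt7, was higher (12 to 16.1 and 10.4 to 19.2 RPKM). At any size of change the endothelial Pecam1 (0.72) and Cdh5 (0.79) and the stellate Lrat (0.93) and Pdgfrb (0.68) were also higher. The cholangiocyte marker Sox9 was lower (-0.73). Of the 5 hepatocyte markers, 2, Alb and Ttr, were lower (summed level 36093 to 47550 and 18154 to 26278 RPKM, most of it Alb). The others went the other way. Hnf4a was higher at any size of change (0.42, limma adjusted p = 0.0041), and Serpina1a (0.36) and Apoa1 (0.12) were not called. The median difference of the macrophage list was 2.02, 1.64, 2.41 and 2.16 in hyperthyroid replicates 1 to 4, and that of the G2 and mitosis genes 0.45, 0.54, 1.55 and 1.94. By these medians replicates 3 and 4 were the highest for both, and the macrophage list was raised in replicates 1 and 2 as well. Of the single macrophage markers, Csf1r had both replicates 3 and 4 above both replicates 1 and 2. Adgre1, Clec4f, Marco and Timd4 did not, and Clec4f was 62.4, 38.2, 53.7 and 61.6 RPKM in hyperthyroid replicates 1 to 4. S100a9 was highest in hyperthyroid replicate 2 and lowest in replicate 4. The part of these cells in the values of the 46 genes was not tested.

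The second comparison asked whether the same genes are raised in hypothyroid mice when NCOR1 cannot bind TR. In L-NCOR1ΔID mice none of the 38 tested genes of the list was called higher or lower (limma adjusted p under 0.01, any size of change), where 0.725% and 0.544% of 13790 genes tested were called. At an unadjusted p under 0.05 there were 4 of the 38 (Cdkn1a, Cdt1, Mcm6 and Kif20a) and 2831 of all genes. The lowest adjusted p of the list was 0.11, for Cdkn1a. All mutant libraries were above all hypothyroid WT libraries for 2 of the 38, Mcm6 and Kif20a, and none had them all below, where 7.78% and 5.36% of all genes tested did so. Exons of Kif20a share 32.3% of their bases with Cdc23 on the opposite strand, listed at 3.28 RPKM in hypothyroid WT and 3.41 RPKM in the mutant, where Kif20a was 0.822 and 1.04 RPKM. The median log2 fold change over the 46 genes without a filter was 0.26, against 0.03 over 18338 genes with any value. A further 8 genes (Aurkb, Bub1, Bub1b, Ccnb1, Cdc6, Cenpe, Foxm1 and Tpx2) did not reach the filter.

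The 4 mutant libraries were spread widely for several of the genes. Cdkn1a was 29.6, 18.6, 8.54 and 4 RPKM in L-NCOR1ΔID replicates 1 to 4, of which the lowest was below the highest hypothyroid WT library (1.88, 95% interval 0.57 to 3.20). Ccnd1 was 12.7, 4.96, 3.66 and 2.14 RPKM, with replicate 1 at the level of the hyperthyroid libraries and replicate 4 at that of hypothyroid WT (0.83, 95% interval -0.19 to 1.85, limma adjusted p = 0.34). Mcm6 was 4.01, 1.5, 1.52 and 1.06 RPKM (1.03, 95% interval 0.23 to 1.84, limma adjusted p = 0.14). Mki67 was 0.45, 0.146, 0.109 and 0.056 RPKM and Top2a 0.671, 0.227, 0.252 and 0.065 RPKM, each with replicate 1 above all hypothyroid WT libraries and replicate 4 below them. The intervals of these differences, -0.66 to 1.01 for Mki67 and -0.40 to 1.41 for Top2a, held both no change and a change above 1. L-NCOR1ΔID replicate 1 was the highest of the mutant libraries for 39 of the 46 genes, where this held for 28.7% of 14101 genes. The median difference from hypothyroid WT over the 21 genes of G2 and mitosis was 1.16 in replicate 1 and 0.19, 0.06 and -0.25 in replicates 2, 3 and 4. Without replicate 1 the log2 fold change was -0.19 for Mki67 and -0.10 for Cdk1. The macrophage markers were highest in replicate 2 instead (median difference 1.25, against 0.34 in replicate 1), while the median over the 5 stellate markers was 0.86 in replicate 1, 0.80 in replicate 2, 0.25 in replicate 3 and 0.28 in replicate 4. The part of other cells in these values was not tested.

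**Figure D4:**
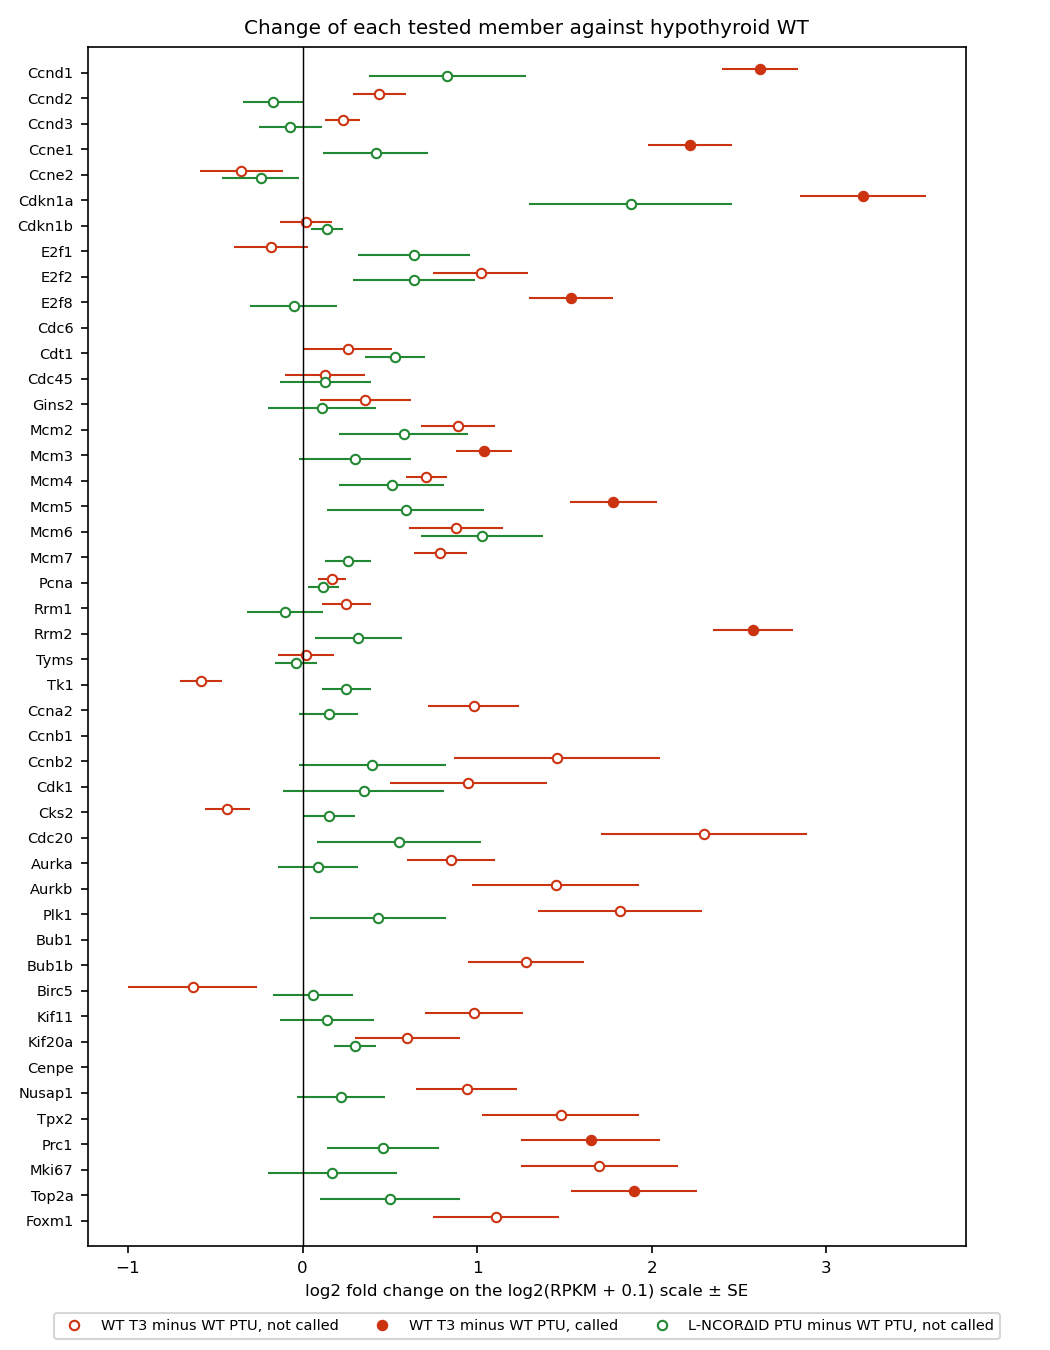
The log2 fold change ± SE of each tested gene against hypothyroid WT, on the log2(RPKM + 0.1) scale, for hyperthyroid WT (red) and L-NCOR1ΔID mice (green), with filled points for calls. A gene without a point did not reach the filter. The 9 filled points lie between 1.04 and 3.21, and no green point is filled.

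T3 and the mutant were both set against the same 4 hypothyroid WT libraries, so the effects were compared through hyperthyroid WT against L-NCOR1ΔID mice directly, with no shared control. Ccne1, E2f8 and Rrm2 were higher and Tk1 was lower in hyperthyroid WT than in L-NCOR1ΔID mice (3 and 1 of 43 tested, where 15.5% and 5.70% of 14017 genes tested were called at an adjusted p under 0.01 and any size of change). Rrm2 was 13.1 to 21.7 RPKM in hyperthyroid WT and 4.25, 2.35, 3.98 and 2.87 RPKM in the mutant (log2 difference 2.26 ± 0.22, limma adjusted p = 1.3e-04). Ccne1 was 0.995, 0.377, 0.938 and 0.635 RPKM in the mutant, below all hyperthyroid libraries (1.80 ± 0.29, limma adjusted p = 0.0018). E2f8 was 0.559, 0.235, 0.432 and 0.468 RPKM in the mutant, also below all of them (1.60 ± 0.28, limma adjusted p = 0.0024). Tk1 was 14.8, 24.1, 19 and 15.6 RPKM in the mutant, above all of them (-0.83 ± 0.17, limma adjusted p = 0.0058), and Afmid, which shares exon sequence with it, was 69.1, 128, 92.8 and 90.9 RPKM there. The difference was not called for Ccnd1 (1.79, limma adjusted p = 0.015), Cdkn1a (1.33, 0.092), Top2a (1.40, 0.059) and Mki67 (1.52, 0.051). Without L-NCOR1ΔID replicate 1 the calls higher were 7 and included Ccnd1, Ccnd2, Mcm3 and Mcm5. The 1 call lower became 0 without L-NCOR1ΔID replicate 3 or hyperthyroid replicate 2, 3 or 4, and 2 without L-NCOR1ΔID replicate 4. Of the 103 further genes 11 were higher and 3 lower among 93 tested. Gadd45a (2.95), Ung (2.53) and Uhrf1 (1.96) led the first group, and Mcm10 (-1.31) and Ccng1, a p53 target (-0.52), were in the second. Against hypothyroid WT, Mcm10 was the single further gene called in the mutant, of 79 tested, at 11.6 to 14.1 RPKM (-1.40, limma adjusted p = 5.3e-04).

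The deposited list of H3K9 and H3K27 acetylated regions, merged over hypothyroid and hyperthyroid WT liver, gives positions in mm9 and no level per sample. The transcription start site (GENCODE M1) of 45 of the 46 genes lay in such a region, as did 86.0% of 12314 genes tested for T3 with a position. The exception was Cdkn1a (start at chr17:29227924), whose nearest region was 1804 bp away and whose RNA had the largest difference after T3. A single start was taken per gene, so any other start of Cdkn1a was not placed against the regions. Regions at the 45 starts were 1227 bp (Cdc20) to 32632 bp long, with a median of 2795 bp against 3977 bp over the tested genes. Genes of mitosis that were near 0.1 RPKM in hypothyroid WT, such as Plk1 (region chr7:129301591-129303897), Mki67 (chr7:142906534-142909481) and Top2a (chr11:98884367-98886562), thus had a start in a merged region. The merged positions cannot show whether these starts were acetylated in hypothyroid liver, in hyperthyroid liver or in both. Ccnd1 lay in a region of 18274 bp (chr7:152111863-152130136) and Rrm2 in one of 7505 bp (chr12:25388408-25395912). Tk1 and Birc5 shared the region of 32632 bp (chr11:117678826-117711457).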

How the data were processed

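RNA of 12 liver libraries was analysed, in 3 groups of 4. The authors made libraries from poly(A)-enriched RNA, aligned the reads to mm9 with STAR and used HOMER for the RefSeq transcripts, and what they deposited is RPKM per transcript. The strand setting is not given in the sources used here. The acetylated regions were deposited as positions alone. Columns of sample values left unused numbered 0, and 1 transcript without a gene name was left out. The other libraries of the series were not analysed here.

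The values were transformed to log2(RPKM + 0.1), and limma 3.58.1 in R 4.3.3 was fitted with its trend option to the 2 groups of each comparison, with Benjamini-Hochberg adjustment over all genes tested. A fold change on this scale understates that of low genes. A gene entered where 4 or more of the 8 libraries held 0.1 RPKM or more. Calls needed an adjusted p under 0.01 and, for T3 alone, a change of more than 1 on the log2 scale. The authors ran DESeq2 on counts, which RPKM do not allow. The procedure was tested on simulated data. Depth was read from RPKM steps, at which 57.0% to 67.6% of low values of genes with 1 transcript were whole reads within 0.05 (6.1% to 7.3% at the median of other depths).

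All 46 genes were described. Of the 103 further genes, those named have the 3 largest changes past the thresholds in each direction. Thrsp and Dio1 check the T3 labels, while Ncor1 is given as the targeted gene and cannot check the mutant label. Some genes of these lists are not reported here. The 46 genes and all lists were chosen with earlier results of these data known. Alternatives were a pseudocount of 1 or 0.01, no filter or a mean of 1 RPKM or more, a joint fit of all 12 libraries, a replicate block, median-ratio scaling, no trend, the transcript with the highest mean, an adjusted p under 0.05, another fold threshold and each library left out. Leaving out genes with exon overlap was chosen after seeing the data. Python 3.11.15, numpy 2.4.6, pandas 2.3.3, scipy 1.17.1 and matplotlib 3.10.9 were used.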

Additional observations from a re-analysis of the deposited data

Results flagged for a closer look

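Within the 3 groups, 10 of 138 sets of 4 values had a highest or lowest library set apart from the other 3 on the log2(RPKM + 0.1) scale (Dixon's criterion for 4 values), which chance meets in about 1 in 20 sets. L-NCOR1ΔID replicate 1 was the high library in 4 of them, for Ccna2 (1.01 RPKM, median of the others 0.695), Aurkb (0.325 and 0.072), Cenpe (0.123 and 0.024) and Foxm1 (0.197 and 0.071). In hypothyroid WT, Cdkn1a was high in replicate 1 (6.21 RPKM, others 2.52), and without that library the T3 call was kept. Cdk1 was high in hypothyroid replicate 2 (0.451 and 0.21), where Mcm7 (2.11 and 2.53) and Cenpe (0.021 and 0.037) were low, and Ccnb1 was listed at 0 in hypothyroid replicate 4. Mcm4 was low in hyperthyroid replicate 2 (1.5 and 1.83).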

How the results depend on the processing

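For T3 the 9 genes called higher became 4 with a pseudocount of 1 RPKM, 13 with one of 0.01 RPKM, 6 (of 27 tested) without genes with exon overlap, which drops Ccnd1, E2f8 and Top2a, and 17 at an adjusted p under 0.05, and the 0 called lower became 1 (Tk1) with no fold threshold. Leaving out each library in turn gave 7 to 16 higher and 0 to 1 lower. Ccnd1, Ccne1, Cdkn1a and Rrm2 were called in all 17 other settings of the fit or the libraries. Scaling by the median of gene ratios, which took the median of all genes from 0.23 to 0.01, left 7 of the 9 calls and gave -0.01 for Ccnd3, -0.22 for Cdkn1b, -0.09 for Cdc45, -0.06 for Pcna and -0.20 for Tyms. Over all genes it turned 1155 higher and 484 lower into 746 and 679, and for hyperthyroid WT against the mutant 2176 and 799 into 1048 and 1293. Other signs turned with single libraries left out: Cdkn1b (-0.03 and -0.12), Cdc45 (-0.04) and Tyms (-0.05 to 0.16) after T3, and in the mutant Ccnd3 (0.10), E2f8 (0.08, and -0.18 to 0.15 over all), Cdk1 (-0.10 to 0.68) and Mki67 (-0.19 to 0.41). Birc5 gave 0.29 by its transcript with the highest mean. No gene was called in the mutant under any alternative. For hyperthyroid WT against the mutant, calls higher and lower were 5 and 2 with all 12 libraries in 1 fit and 7 and 2 at an adjusted p under 0.05. The call lower became 0 without the variance trend, above a log2 fold change of 1 and without genes with exon overlap, and 2 with scaling by gene ratios. Leaving out each library gave 3 to 7 higher and 0 to 2 lower. With a replicate block the counts were 8 and 0 for T3, 0 and 0 for the mutant and 2 and 0 between them, and 20 and 25 of all genes in the mutant, and the numbers mark no known pairs (correlation of same-numbered deviations -0.12 to 0.17). The cause of these changes was not tested. Depth limits the genes near 0.1 RPKM, at 2.13 to 4.26 reads per kilobase. Start sites by the transcript with the highest mean were not run, since RefSeq transcripts were not placed.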
